A study of Mus musculus with 7 samples.

Results

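The immediate early genes described here are 10 rapid-response genes, measured in ribosome-bound RNA from adult mouse retinas treated with an antibody against Dll4 or with a control IgG. The members are Fos, Fosb, Jun, Junb, Jund, Egr1, Atf3, Ier2, Ier3 and Btg2, matched to the deposited table by gene symbol. Of the 10, 9 had a row among the 12756 genes of the table, and 8 had enough reads to be tested among 10899 genes. Fosb was not analysed here for expression, and Atf3 was below the filter on low values (at least 1 CPM in at least 3 libraries, CPM being reads scaled to a fixed library total).

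All mice were adult C57BL/6 animals of the genotype Cdh5-CreERT2 Rpl22 tm1.1Psam, in the control group as in the treated group. In such RiboTag mice, a tamoxifen-inducible Cre under the endothelial Cdh5 promoter switches Rpl22, a protein of the large ribosomal subunit, to an HA-tagged form, and the tagged cells are limited to those in which that promoter drove Cre. Ribosomes were pulled down from retina lysates with anti-HA beads, and the bound RNA was read from its 3′ ends (QuantSeq) in 3 control IgG and 4 anti-Dll4 libraries. Dose, duration of treatment and the number of animals in a library are not stated in the labels. The p-values therefore describe variation among these libraries only, and some of it may be technical. Libraries are named by the number of their table column. The control column numbered 1 matches no control title by number, and it entered the control group without a replicate number.

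Immediate early genes are transcribed within minutes of a stimulus, without the need for new protein synthesis, when kinase cascades activate factors such as SRF with its Elk partners and CREB on promoters that are already open. Several of their products are transcription factors. Fos and Jun proteins pair through leucine zippers to form AP-1, Jun proteins can also pair among themselves, and Egr1 binds GC-rich sites through zinc fingers. Their transcripts are short-lived, and growth factors, shear stress, depolarisation and injury are all known to raise them, in endothelial cells, glia and neurons alike.

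Promoter sequences are shown first, because CREB and ATF binding elements are a known feature of this gene class and were not used to choose the members. RefSeq windows of 300 bases (250 before to 50 after the start, GRCm38.p6) were matched by symbol for 8 of the 10 members, all except Egr1 and Ier2. The core of the cyclic AMP response element, TGACG on either strand, was found in 5 of the 8 windows (Fos, Fosb, Junb, Atf3 and Btg2) and in 20.8% of all 32851 windows. The stretches below run 5′ to 3′ on the strand of the gene, with the element in capitals, or its reverse complement where it lies on the other strand. For Jun the capitals mark a match to the octamer pattern TGANNTCA. The match shown is TGACATCA, which Jun and ATF proteins are known to bind. The pattern can contain TGACG, and not every match to it is a known binding sequence.
Fos, chr12:85473799-85473853, plus strand: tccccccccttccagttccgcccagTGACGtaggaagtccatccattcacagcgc
Fosb, chr7:19310076-19310130, minus strand: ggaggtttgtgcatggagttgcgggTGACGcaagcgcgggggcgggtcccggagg
Junb, chr8:84978825-84978879, minus strand: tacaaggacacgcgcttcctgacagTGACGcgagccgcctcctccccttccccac
Atf3, chr1:191183334-191183365, minus strand: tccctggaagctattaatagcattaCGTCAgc
Btg2, chr1:134079289-134079343, minus strand: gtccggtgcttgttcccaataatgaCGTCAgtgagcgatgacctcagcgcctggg
Jun, chr4:95052235-95052292, minus strand: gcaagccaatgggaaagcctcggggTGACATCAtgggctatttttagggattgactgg

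The copy nearest to the start began 66 bases before it in Fos, 60 in Fosb and 106 in Junb. The octamer TGANNTCA was in 3 of 8 windows (Jun, Jund and Btg2) and in 14.1% of all windows, and in Btg2 one match was the full palindrome of the cyclic AMP response element. TATAAA was in 2 of 8 (Fos and Junb, 13.6% of all), and the EGR site GCGNGGGCG in 2 of 8 (Fosb and Btg2, 5.55% of all). The TATAAA match began 33 bases before the start in Fos and at the annotated start itself in Junb. The AP-1 heptamer TGANTCA (7.81% of all) and the CArG box bound by SRF (1.63% of all) were in 0 of 8. A match is a description of the letters and not a site in use, and elements outside the window were not searched. Of the tested members with a window, those with TGACG had log2 changes of -0.62 (Fos), -0.19 (Btg2) and 0.92 (Junb). Those without it had 0.66 (Jund), 0.75 (Ier3) and 1.04 (Jun). Each of these changes had a 95% interval that included 0, and a link between element and change was not tested.

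Depth ran from 1356192 to 1771086 reads per library over the genes of the table, and 3 reads corresponded to 1.69 to 2.21 CPM. RNA of other cells was abundant in the pull-down. The 20 endothelial markers summed to 0.193% to 0.289% of all CPM in control and 0.426% to 0.547% in anti-Dll4 libraries, and none of them was at 0 in 4 or more libraries. The 17 rod photoreceptor markers summed to 2.57% to 2.72% in control and 1.13% to 2.17% in anti-Dll4 libraries. In bulk samples of this kind, fewer cells of a type and less RNA per cell cannot be told apart. Nor can either be told from a different share of RNA from untagged cells in the pull-down. Over all 10899 tested genes, 13 passed an adjusted p of 0.05 (limma with Benjamini-Hochberg adjustment), all of them higher in anti-Dll4 libraries. That split of 13 higher and 0 lower was 2 and 163 with libraries scaled on endothelial markers, and 14 and 24 with voom on whole reads. It was 1 and 2 with a replicate block on title numbers, whose changes rest on libraries 3 and 4 of each group.

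Setting the treated against the control libraries asks whether these early response transcripts differ in the pulled-down RNA when Dll4 is blocked. None of the 8 tested members passed the threshold (0 of 8, against 0.119% of all tested genes), and 0 of 8 had an unadjusted p under 0.05 in limma, against 7.09% of all tested genes. Voom called 0 of 8 as well (0.349% of all tested genes), with 0 of 8 at an unadjusted p under 0.05 (8.3% of all). The log2 changes ran from -0.62 for Fos to 1.04 for Jun. They were positive for 6 members, with a median of 0.45, where 45.5% of all tested genes had a positive change and their median was -0.14. Summed over the 9 members, the libraries held 539, 768 and 930 CPM in the controls and 1051, 1045, 915 and 1056 CPM after anti-Dll4 treatment. The anti-Dll4 library with the lowest sum lay just under the highest control library, so the sums overlapped.

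**Figure D1:**
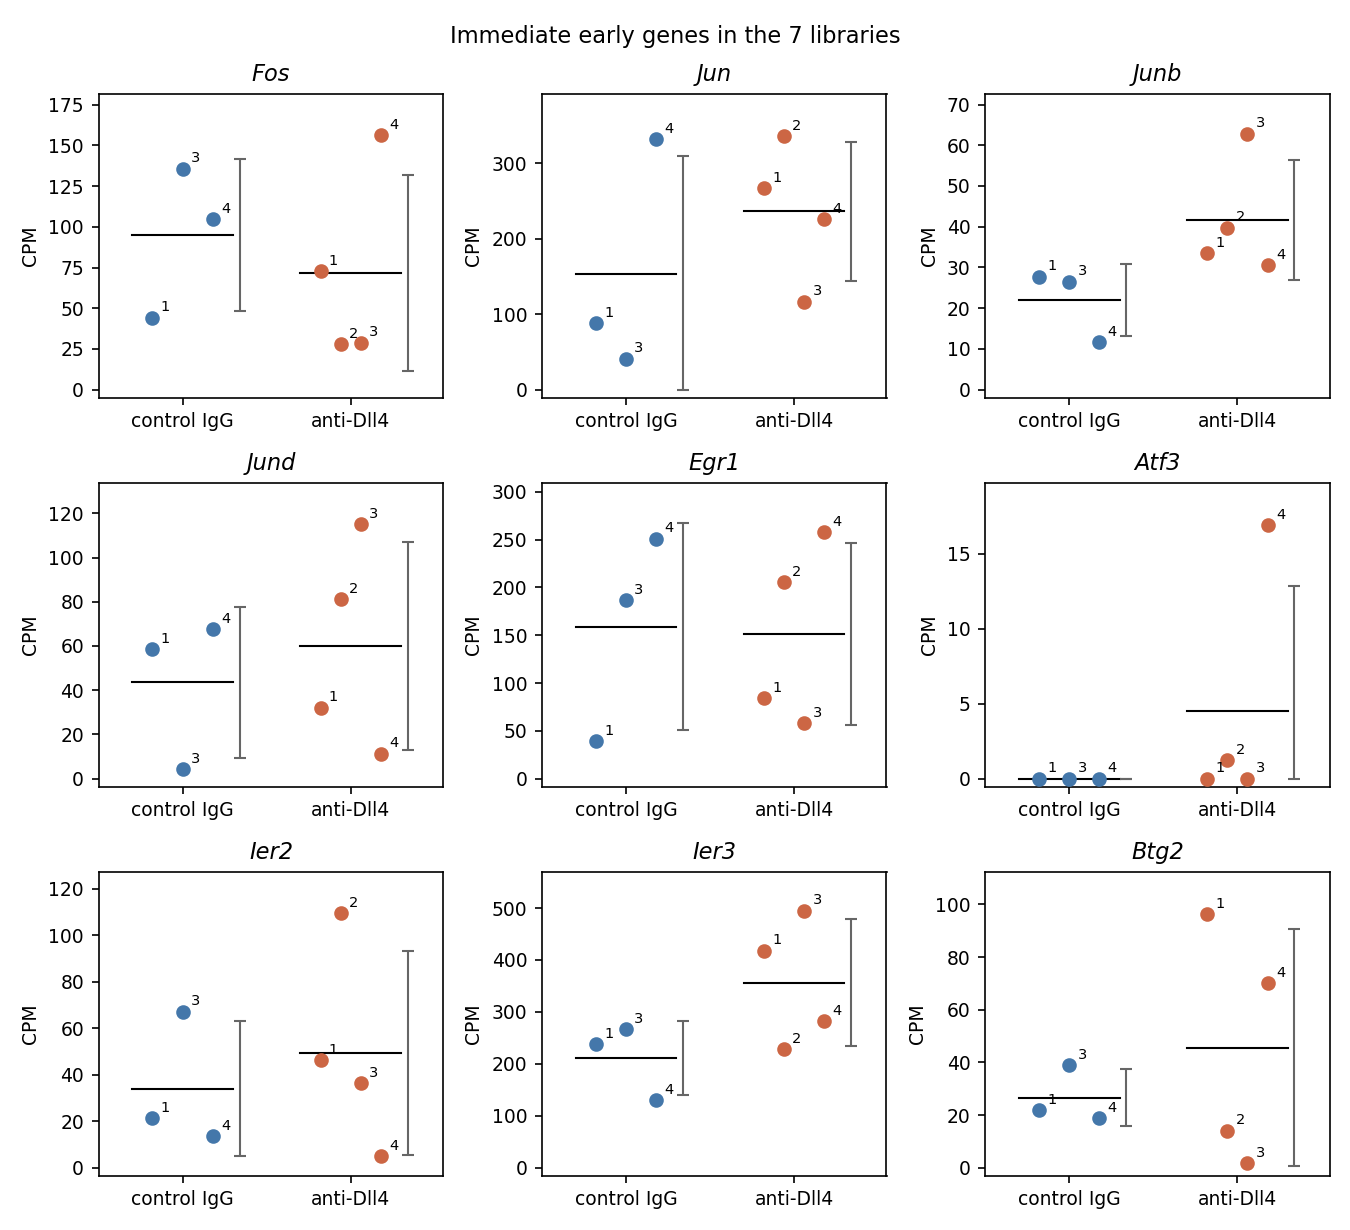
CPM of each of the 9 members in the table (vertical axis, own scale per gene) in the 3 control IgG and 4 anti-Dll4 libraries; points are libraries labelled by column number, horizontal lines are group means and grey bars the mean ± SD, cut at 0. Groups overlap for every member except Junb, whose 4 anti-Dll4 libraries lie at 30.5 to 62.9 CPM and control libraries at 11.7 to 27.7 CPM.

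Fos encodes an AP-1 subunit that cannot pair with itself and needs a Jun partner. It stood at 44.3, 136 and 105 CPM in control IgG 1, 3 and 4, and at 73.0, 28.1, 28.9 and 156 CPM in anti-Dll4 1 to 4. The highest library of all was anti-Dll4 4 and the lowest anti-Dll4 2, so the treated group enclosed the control group. The means were 94.95 ± 46.5 CPM (SD, n = 3) in control and 71.6 ± 60.3 CPM (SD, n = 4) in anti-Dll4 libraries. The log2 change was -0.62 ± 0.83 (SE), with a 95% interval from -2.35 to 1.11 (limma adjusted p = 0.904). Only anti-Dll4 4 lay above the control mean on the log2 scale, 1 of 4 libraries.

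Jun, the Jun family member with the strongest transactivation, had the largest change among the 8 tested members. Its values were 88.5, 41.3 and 332 CPM in the controls and 267, 336, 117 and 226 CPM after anti-Dll4 treatment. Control IgG 4 was close to the highest treated library, while the other two control libraries lay below all 4 treated ones. The log2 change was 1.04 ± 0.64 (SE), with a 95% interval from -0.29 to 2.37 (limma adjusted p = 0.758). On the log2 scale, 4 of 4 anti-Dll4 libraries lay above the control mean. In CPM, anti-Dll4 3 at 117 lay below the control mean of 154. The log2 change went to 1.85 without control IgG 4 and to 0.36 without control IgG 3. The 56 reads of control IgG 3 have an exact 95% Poisson interval of 42.3 to 72.7 reads and the 509 reads of control IgG 4 one of 466 to 555, so that these libraries of one group differ by more than counting error. Such intervals cover counting error only, since reads without molecular identifiers are not independent molecules.

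Junb, a weaker activator that can hold back Jun in some promoters, was the only member whose groups did not overlap. It was at 27.7, 26.5 and 11.7 CPM in the controls and at 33.5, 39.8, 62.9 and 30.5 CPM after anti-Dll4 treatment. All 4 treated libraries were above all 3 controls, as was the case for 3.84% of all tested genes in that direction and 7.59% in either direction. The means were 22.0 ± 8.92 CPM (SD, n = 3) and 41.7 ± 14.7 CPM (SD, n = 4), and the log2 change was 0.92 ± 1.10 (SE; limma adjusted p = 0.889). The gap between the groups was small against counting error: the 47 reads of control IgG 1 correspond to 20.4 to 36.9 CPM and the 54 reads of anti-Dll4 4 to 22.9 to 39.8 CPM (95% Poisson). In GENCODE M21 the gene overlaps Prdx2, which encodes a peroxiredoxin and lies on the opposite strand. No source used here states whether counting used strand, so reads of the pair may not be told apart. Prdx2 had 209, 19 and 77 reads in the controls and 244, 88, 208 and 294 after anti-Dll4 treatment, with a log2 change of 1.34 ± 0.81 (SE; limma adjusted p = 0.751).

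Jund, the Jun protein present in resting cells and the least inducible of the family, had 58.4, 4.42 and 67.8 CPM in the controls and 32.1, 81.3, 115 and 11.3 CPM after anti-Dll4 treatment. Its highest library was anti-Dll4 3 and its lowest control IgG 3, which held 6 reads. Groups overlapped, with a log2 change of 0.66 ± 1.18 (SE) and a 95% interval from -1.80 to 3.12 (limma adjusted p = 0.935). Without control IgG 3 the change was -0.53. Jun and Jund also overlap non-coding antisense genes in GENCODE M21, for neither of which values were analysed here.

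Egr1, a zinc finger factor induced through SRF, was at 39.5, 187 and 251 CPM in the controls and at 84.4, 205, 58.3 and 257 CPM after anti-Dll4 treatment. Both groups spanned nearly the same range. The means were 159 ± 108 CPM (SD, n = 3) and 151 ± 95.4 CPM (SD, n = 4). The log2 change was 0.05 ± 0.71 (SE), with a 95% interval from -1.43 to 1.52 (limma adjusted p = 0.992). This interval leaves room for changes of more than 1 log2 unit either way.

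Atf3, a stress-induced factor that represses as well as activates, was close to the limit of what these libraries can show. It had 0 reads in each control library and 0, 2, 0 and 30 reads in anti-Dll4 1 to 4. A count of 0 allows up to 3 reads, which is 1.77, 2.21 and 1.96 CPM in control IgG 1, 3 and 4. Only anti-Dll4 4, at 16.9 CPM, was above that, so a single library carries nearly all 32 reads of the gene, and that library also had the highest Fos and Egr1. It was not tested.

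Ier3, a small stress-response protein with a part in the control of apoptosis, had 237, 267 and 130 CPM in the controls and 418, 229, 495 and 283 CPM after anti-Dll4 treatment. Anti-Dll4 2 fell within the control range and the other 3 treated libraries were above it. The means were 211 ± 71.8 CPM (SD, n = 3) and 356 ± 122 CPM (SD, n = 4). The log2 change was 0.75 ± 0.45 (SE), with a 95% interval from -0.19 to 1.69 (limma adjusted p = 0.751). It had the most reads of any member, 3337 in all. Its interval was the narrowest of the 8 and still included 0.

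Ier2, a nuclear protein of the early response, had 21.2, 67.1 and 13.7 CPM in the controls and 46.2, 109, 36.3 and 5.08 CPM after anti-Dll4 treatment. The treated group again enclosed the control group, with the extremes in anti-Dll4 2 and anti-Dll4 4. The log2 change was 0.23 ± 1.23 (SE; limma adjusted p = 0.981). Btg2, an antiproliferative protein that recruits the deadenylase complex to messenger RNA, had 21.8, 39.1 and 18.9 CPM in control. In anti-Dll4 libraries it had 96.4, 14.1, 1.70 and 70.0 CPM, with 2 libraries above and 2 below all controls. Its log2 change was -0.19 ± 1.40 (SE; limma adjusted p = 0.987), although its mean CPM was higher in anti-Dll4 libraries (45.6, against 26.6 in control). The sign was not stable: the change was 0.84 without anti-Dll4 3, which held 3 reads, 0.11 without control IgG 3 and 0.0121 without anti-Dll4 2.

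**Figure D2:**
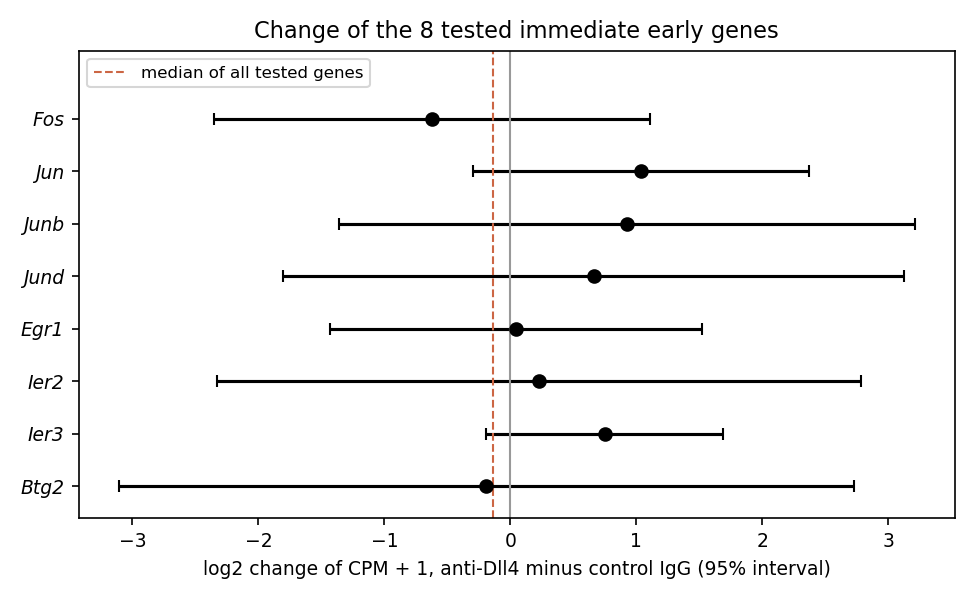
Log2 change of CPM + 1 (anti-Dll4 minus control IgG, horizontal axis) of the 8 tested members; points are limma estimates from 3 control and 4 anti-Dll4 libraries, bars 95% intervals, and the dashed line the median of all tested genes at -0.14. All 8 intervals include 0, and the narrowest is that of Ier3 (-0.19 to 1.69).

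The members differed in how much they varied between libraries of one group. Pooled over both groups, the SD of log2(CPM + 1) was 1.19 for Egr1 and 1.08 for Jun, against medians of 0.76 and 0.67 over the 500 tested genes nearest to each in mean level. Fos (1.05, against 1.06), Ier3 (0.53, against 0.53) and Btg2 (1.87, against 1.83) were close to genes of their level. Junb, at 0.55, was less variable than its level's median of 1.77. The limma error of Junb is larger than its own SD would give, since the fit draws each gene's variance towards that of genes of like level. Without the mean-variance trend its change of 0.92 had an SE of 0.67 (limma adjusted p = 0.853). Over all tested genes the median SD was 1.05 in control and 1.56 in anti-Dll4 libraries. Btg2 differed most between groups in this respect, with 0.54 in control and 2.37 in anti-Dll4 libraries, and Jun had the reverse order, with 1.51 and 0.65.

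**Figure D3:**
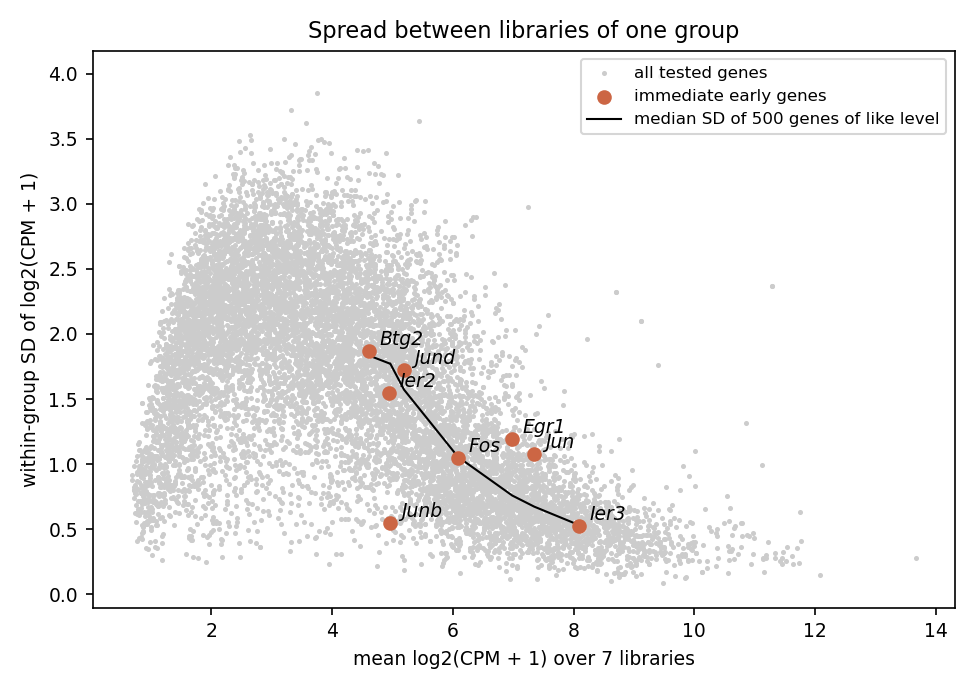
Within-group SD of log2(CPM + 1) (vertical axis) against the mean log2(CPM + 1) over 7 libraries (horizontal axis) for all tested genes (grey) and the 8 tested members (orange); the line joins the median SD of the 500 genes nearest in level to each member. Egr1 (1.19) and Jun (1.08) lie above the line and Junb (0.55) lies far below it.

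The members did not share one order of the libraries. Anti-Dll4 3 held the highest values of Junb, Jund and Ier3 and the lowest of Btg2. Anti-Dll4 4 held the highest Fos and Egr1 and the lowest Ier2. Anti-Dll4 2 held the highest Jun and Ier2 and the lowest Fos, and anti-Dll4 1 the highest Btg2. The lowest Egr1 was in control IgG 1, the lowest Jun and Jund in control IgG 3, and the lowest Junb and Ier3 in control IgG 4. Likeness was measured as the mean absolute difference of log2 values centred on each gene's mean over the 7 libraries, among 7501 other genes with a mean of at least 3. Egr1 was 356th in likeness to Fos (0.68), and Fos was 184th in likeness to Egr1. Btg2 was 1482nd in likeness to Fos, Ier3 2680th, Jun 2796th, Junb 3349th, Ier2 4623rd and Jund 6171st. In likeness to Egr1, Jun was 833rd, Junb 3164th, Ier3 3504th, Btg2 3762nd, Ier2 4652nd and Jund 5296th. This measure depends on the spread of each gene as well as on the order of its libraries. The genes nearest to Fos were Impdh2 (0.32), Tmem69 (0.33) and Ndufb10 (0.38), and those nearest to Egr1 were Aqr (0.32), Psen2 (0.35) and Glt8d1 (0.36). For scale, the median difference over all these genes was 1.31 for Fos and 1.36 for Egr1.

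The sign of the change depended on what the libraries were scaled on for all 8 tested members. Scaled on the summed endothelial markers, which were higher in every anti-Dll4 library, the changes were negative for all 8 members, from -1.70 for Fos to -0.05 for Jun. Scaled on the summed rod markers, which were lower in every anti-Dll4 library, they were positive for all 8, from 0.08 for Fos to 1.74 for Jun. Under these scalings the median of all tested genes went from -0.14 to -1.08 and to 0.47. Relative to that median, the members' median was 0.58 higher with the deposited scaling, 0.48 higher with endothelial scaling and 0.65 higher with rod scaling. Scaling moves every gene of a library by nearly the same amount, so the likeness of these differences was nearly fixed in advance. The difference was -0.11 with a replicate block on title numbers and 0.31 with one on column numbers. No member passed the threshold under endothelial or rod scaling, the smallest limma adjusted p being 0.259 (Fos, endothelial) and 0.265 (Ier3, rod). Among the markers of other cells, red blood cell genes summed to 1397 to 18715 CPM in control and 661 to 36008 CPM in anti-Dll4 libraries. The 6 microglial markers in the table summed to 35.4 to 115 and 29.4 to 279 CPM, the 12 Müller glia markers to 1765 to 2955 and 1698 to 2775 CPM, and the 7 mural markers to 139 to 218 and 103 to 487 CPM. Gfap and S100b, the astrocyte markers in the table, were at 0 in at least 4 libraries. The part of these cells in the members' values was not tested.

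**Figure D4:**
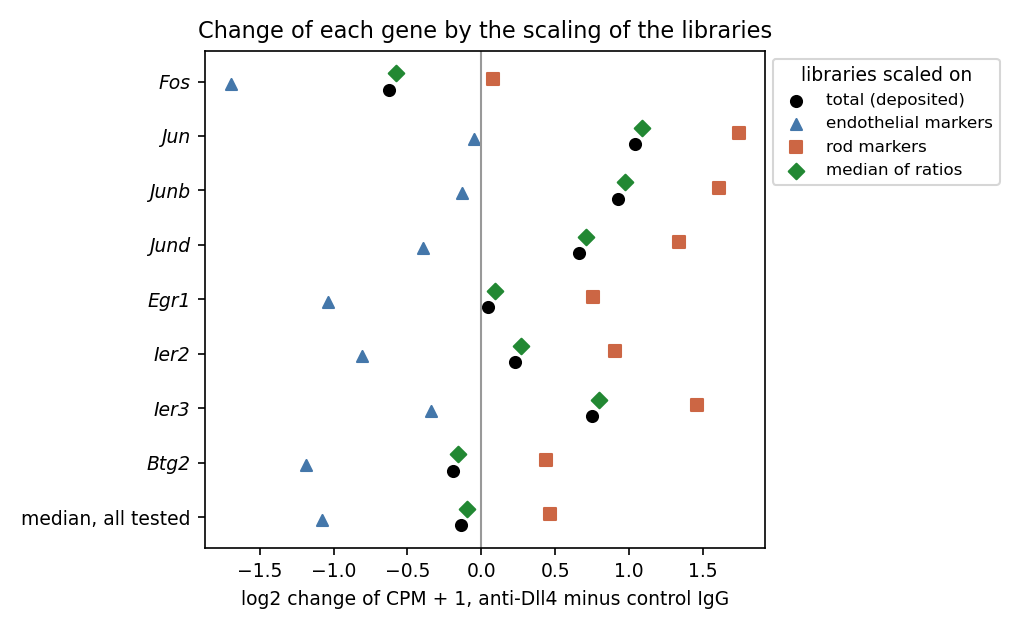
Log2 change of CPM + 1 (anti-Dll4 minus control IgG, horizontal axis) of each tested member and the median of all tested genes under 4 ways of scaling the libraries; each symbol is one limma estimate. With endothelial scaling all 8 members are below 0 and with rod scaling all 8 are above 0, and the median of all genes moves the same way, to -1.08 and 0.47.

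Related genes were read from 5 lists, none of which had a member past the threshold in limma or voom (0 genes). Other immediate early factors had 14 positive and 5 negative changes among 19 tested, with a median of 0.72. Fosl2, the AP-1 subunit Fra-2, had 30, 110 and 100 reads in the controls and 185, 253, 336 and 317 after anti-Dll4 treatment. All treated libraries were higher, and the log2 change was 1.79 ± 0.69 (SE; limma adjusted p = 0.633). Irf1, a factor of the interferon response, had a change of 2.11 ± 0.84 and Bhlhe40, a circadian repressor, one of 2.56 ± 1.22, both with overlapping groups. The lowest control library of Irf1 held 9 reads and that of Bhlhe40 held 0. In this list 3 of 19 had an unadjusted p under 0.05, all of them higher, beside 7.09% of all tested genes in either direction. That share of all genes is the background for the other lists as well.

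Feedback inhibitors of the early response had 13 positive and 7 negative changes among 20 tested (median 0.41), with 3 of 20 at an unadjusted p under 0.05. Nfkbia, which encodes the inhibitor of NF-kB that NF-kB itself induces, had 570, 374 and 1033 reads in the controls and 1633, 1600, 2109 and 1365 after anti-Dll4 treatment. Groups did not overlap, with a log2 change of 1.33 ± 0.34 (SE; limma adjusted p = 0.202). It passed with libraries scaled on rod markers (change 2.04, limma adjusted p = 0.00842) and was at 0.23 with endothelial scaling (limma adjusted p = 0.791). Dusp2, a phosphatase of nuclear MAP kinases, had 0, 0 and 3 reads in the controls and 1, 24, 801 and 394 after anti-Dll4 treatment, with a change of 4.81 ± 1.93. Most of its reads were in anti-Dll4 3 and 4. Spry1, an inhibitor of receptor tyrosine kinase signalling, had 0 reads in each control library and 20, 65, 4 and 0 in anti-Dll4 libraries. Without control reads, Spry1 met the filter on low values only through anti-Dll4 libraries, so its positive sign was fixed in advance. It counts among the 13 positive changes and the 3 at an unadjusted p under 0.05, and is no support for either count.

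Secreted and stress-related early genes had 10 positive and 9 negative changes among 19 tested (median 0.03). Edn1, the endothelin precursor, had 31, 0 and 1 reads in the controls and 218, 102, 262 and 280 after anti-Dll4 treatment (log2 change 5.27 ± 1.32, limma adjusted p = 0.178). It passed with rod scaling (limma adjusted p = 0.034) and not with endothelial scaling (0.0973). Pim1, a survival kinase, had 0, 6 and 35 reads against 72, 86, 231 and 101 (3.73 ± 1.40), and its groups did not overlap. Plk2, a polo-like kinase, had a change of 1.17 ± 0.71 with overlapping groups. An unadjusted p under 0.05 was found for 2 of 19.

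Leucine zipper factors listed as possible AP-1 partners were evenly split, with 8 positive and 8 negative changes among 16 tested (median 0.00). The list also held Nrl, which is among the rod markers. Nfe2l2, the regulator of antioxidant genes, had 0, 1 and 3 reads in the controls and 84, 110, 51 and 7 after anti-Dll4 treatment (log2 change 4.00 ± 1.68, limma adjusted p = 0.688). Mafk, a small Maf protein, and Atf1 had changes of 2.41 ± 1.43 and 1.05 ± 1.06 from few reads, and 1 of 16 had an unadjusted p under 0.05. SRF, its partners and the kinases upstream had 12 positive and 16 negative changes among 28 tested (median -0.20), with 4 of 28 at an unadjusted p under 0.05. Mapkapk2, a kinase activated by p38, had 24, 13 and 23 reads in the controls and 43, 400, 498 and 324 after anti-Dll4 treatment (3.35 ± 0.95, limma adjusted p = 0.303). Map2k4, which activates the Jun kinases, had 103, 150 and 160 reads against 1, 19, 6 and 63 (-3.56 ± 1.40, limma adjusted p = 0.642). Elk1, an SRF partner, had 73, 40 and 76 reads against 1, 7, 11 and 5 (-3.37 ± 1.61, limma adjusted p = 0.696). For Map2k4 and Elk1 every treated library was below every control library, as for 3.75% of all tested genes.

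**Figure D5:**
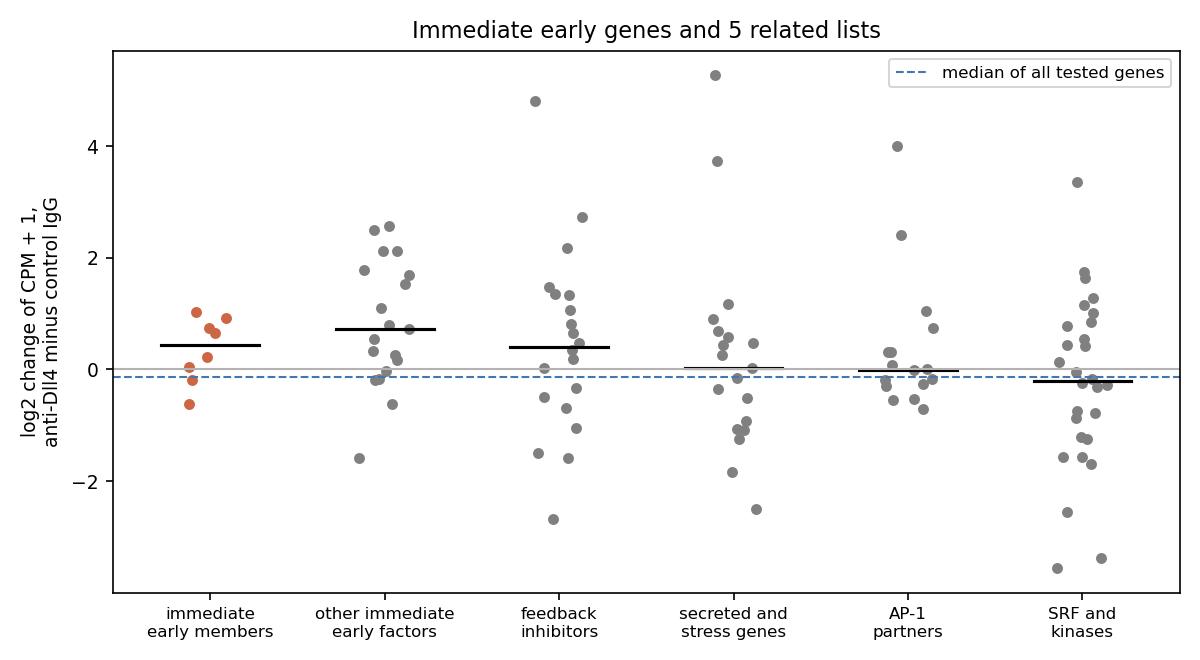
Log2 change of CPM + 1 (anti-Dll4 minus control IgG, vertical axis) of the 8 tested members (orange) and of the tested genes of 5 related lists (grey); each point is a gene, black lines are list medians and the dashed line is the median of all tested genes at -0.14. The members lie between -0.62 and 1.04, and their median is 0.45.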

How the data were processed

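The table holds values that the authors deposited on a log10 scale, as log10(CPM + 1) for each gene. Turned back, the CPM summed to the same total in every library, and 100% of them were whole multiples of the CPM of 1 read (tolerance 1e-06), which gave whole reads. Cutadapt, TopHat2 and bedtools are named without roles in the submitters' processing notes, which also name the human build hg19 for these mouse symbols. The counting rule is not given in the sources used here.

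Values were taken to log2(CPM + 1), and genes reaching 1 CPM in 3 or more of the libraries were fitted with limma 3.58.1 in R 4.3.3. The model held the antibody alone, variances were moderated with a mean-variance trend, tests were two-sided, and Benjamini-Hochberg adjustment ran over all fitted genes (threshold 0.05). The design had foreseen CPM, and its test was kept after the conversion. Adding 1 shrinks the changes of low genes. The fit was tested on simulated data. The members and lists were chosen with earlier results of these data known. All members are named. From each related list the text names the members past the threshold or, where there are none, 3: first those whose groups do not overlap, then those with the smallest p. Alternatives changed the pseudocount, filter, scaling, trend, replicate block, test and set of libraries.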

Additional observations from a re-analysis of the deposited data

Results flagged for a closer look

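Within the 4 anti-Dll4 libraries, 3 of 25 sets of values had one library far from the rest (the gap to the nearest library over the whole range, above Dixon's 95% limit). Chance gives about 1 in 20 for independent sets. These sets are not independent, since the summed CPM is built from other sets. The related genes were also named from their values in the same libraries. The count therefore cannot be set against that share. The summed CPM of the members had a ratio of 0.917, with anti-Dll4 3 at 915 CPM and the others at 1045 to 1056. Edn1 had a ratio of 0.914 on the log2 scale, with anti-Dll4 2 low at 102 reads. Pim1 had a ratio of 0.833, with anti-Dll4 3 high at 231 reads.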

How the results depend on the processing

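No alternative brought a tested member past the threshold (0 members in each of 19 alternative fits, the 2 fits with voom having been chosen after seeing the data). With libraries scaled on endothelial markers the changes turned to -0.0496 (Jun), -0.13 (Junb), -0.40 (Jund), -1.04 (Egr1), -0.81 (Ier2) and -0.34 (Ier3), and with rod scaling to 0.0794 (Fos) and 0.44 (Btg2). A pseudocount of 5 turned Btg2 to 0.0436. Leaving out a library gave -0.53 to 1.31 for Jund, -0.76 to 0.56 for Egr1, -0.35 to 1.04 for Ier2 and -0.89 to 0.84 for Btg2. With a replicate block on title numbers Egr1 went to -0.81, Ier2 to -1.07 and Mafk to -0.0567, and on column numbers Egr1 to -0.18, Ier2 to -0.35 and Btg2 to 0.0121. A library whose number is not shared by both groups does not count towards the changes of a block fit. The block on title numbers thus compared control IgG 3 and 4 with anti-Dll4 3 and 4. The block on column numbers left out anti-Dll4 2, and gave the same changes as the fit without that library. The members' median minus that of all tested genes was -0.11 with the block on title numbers (members' median -0.17, 4 of 8 positive) and 0.31 with the block on column numbers. The labels do not state whether same-numbered libraries are pairs. Deviations of same-numbered libraries correlated at 0.05, 0.05 and 0.07, and each control correlated best with its own number. Whether the libraries are paired cannot be told from these values. The count of 13 genes higher went to 0 without the mean-variance trend, 1 (title numbers) and 4 (column numbers) with the block, 2 with endothelial scaling, 76 with rod scaling and 3 to 22 with a library left out (3 without control IgG 1 or anti-Dll4 4, 6 without anti-Dll4 1 or anti-Dll4 2, 22 without control IgG 3). The count of 0 genes lower (372 at an unadjusted p under 0.05) went to 2 with the block on title numbers, 163 with endothelial scaling, and 24 and 23 with voom, without and with median-of-ratios scaling. With a library left out it was 0 in each of 7 fits. The cause was not tested. The fits named as edgeR, DESeq2 and voom with TMM were not run. Voom on the whole reads, without TMM, was run in their place. Reads limit Atf3 (32 in all), Junb (381) and Btg2 (413) most.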
